A study of Homo sapiens with 2 samples.

Results

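The genes described here encode enzymes that place or remove methyl groups on histone lysines. They were chosen by symbol among RefSeq protein-coding genes of chromosomes 1 to 22: every symbol that begins with KMT, KDM or SETD, together with EZH1, EZH2, EHMT1, EHMT2, SUV39H2, NSD1, NSD2, NSD3, DOT1L and ASH1L. This gave 47 genes of 19126, of which 30 belong to the methyltransferase side and 17 are KDM genes. The rule itself uses no measured value, but it was drawn up with earlier results of these data known. One of the 47, SETDB2-PHF11, is a readthrough gene that shares its start with SETDB2, so both carry the same measurement. Genes of the sex chromosomes, such as KDM5C and KDM6A, were not included.

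ATAC-seq, an assay whose transposase Tn5 cuts open chromatin and leaves sequencing adapters there, was run on U2OS cells, an established osteosarcoma line grown in serum-containing medium. One library came from U2OS cells infected with a short hairpin labelled sh-VNGD, after Vanguard, a long non-coding RNA that the study's title ties to glucose deprivation and DNA repair, and one from U2OS cells infected with a control hairpin, sh-ctrl. Each group held 1 library of 1 cell line, so no difference below has a replicate check, no test was made, and every interval covers counting error only. The files hold accessibility and no RNA, so neither the knockdown nor the expression of these enzymes was measured.

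Histone lysine methylation is written mostly by SET domain enzymes, with DOT1L as the known exception, and is removed by the flavin-dependent LSD enzymes and by the iron- and oxoglutarate-dependent JmjC enzymes. Methylation of H3K4 marks promoters and enhancers, H3K36 and H3K79 methylation accompany transcription, and H3K9, H3K27 and H4K20 methylation are tied to silent or compact chromatin. Most of these enzymes are made in nearly all dividing cells, and their genes typically start in CpG islands.

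The promoter sequences showed that composition. Of the 47 genes, 43 matched an entry in the RefSeq promoter table (GRCh38.p14, from 250 bases before to 50 bases after a start). NSD3, KDM4E, SETD1B and DOT1L did not, and their outer gene ends were used in place of starts. The 43 promoters held a median of 30 CpG dinucleotides in 300 bases, against 23 over 15101 listed promoters, and a median GC content of 67%, against 63.3%. The sequences of 4 genes, chosen by their start values, are printed 5′ to 3′ as examples. KDM7A had the highest start ratio of sh-VNGD over sh-ctrl and KMT2B had the lowest. KDM4D and KDM4F are neighbouring JmjC genes of chromosome 11 with and without a start peak. Whether the sequences bear on these values was not tested. Capitals mark letters that match the GC box motif GGGCGG, the CCAAT box, the TATA box motif TATAAA or the ETS core motif CGGAAG on either strand. The windows are chr7:140176934-140177233 on the minus strand for KDM7A, chr19:35717753-35718052 on the plus strand for KMT2B, chr11:94973459-94973758 on the plus strand for KDM4D and chr11:95049172-95049471 on the plus strand for KDM4F.
KDM7A: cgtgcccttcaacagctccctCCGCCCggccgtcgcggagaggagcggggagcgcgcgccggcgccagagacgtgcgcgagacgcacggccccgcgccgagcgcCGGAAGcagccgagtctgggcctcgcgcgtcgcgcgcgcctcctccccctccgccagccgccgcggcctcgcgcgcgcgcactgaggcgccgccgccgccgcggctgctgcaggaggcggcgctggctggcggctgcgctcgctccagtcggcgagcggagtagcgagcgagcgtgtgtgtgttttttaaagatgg
KMT2B: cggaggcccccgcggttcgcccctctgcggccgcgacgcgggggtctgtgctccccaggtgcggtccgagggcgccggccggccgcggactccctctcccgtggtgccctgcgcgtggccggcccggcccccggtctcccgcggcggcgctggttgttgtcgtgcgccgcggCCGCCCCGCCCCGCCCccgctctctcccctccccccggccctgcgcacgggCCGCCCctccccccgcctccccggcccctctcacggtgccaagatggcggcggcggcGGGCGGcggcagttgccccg
KDM4D: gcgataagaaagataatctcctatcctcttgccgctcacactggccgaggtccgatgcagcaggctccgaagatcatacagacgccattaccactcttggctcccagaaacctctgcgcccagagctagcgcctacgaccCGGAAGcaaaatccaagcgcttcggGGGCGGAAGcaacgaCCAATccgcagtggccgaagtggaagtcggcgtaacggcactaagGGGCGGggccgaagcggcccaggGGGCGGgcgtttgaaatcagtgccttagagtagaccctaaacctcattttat
KDM4F: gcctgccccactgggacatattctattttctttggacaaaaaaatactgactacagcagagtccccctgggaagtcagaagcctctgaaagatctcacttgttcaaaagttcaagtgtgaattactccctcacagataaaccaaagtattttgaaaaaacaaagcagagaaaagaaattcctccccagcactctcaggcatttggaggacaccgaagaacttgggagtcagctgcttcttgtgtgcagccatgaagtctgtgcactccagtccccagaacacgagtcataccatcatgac
KDM7A held 56 CpG dinucleotides, KMT2B 48, KDM4D 24 and KDM4F only 2, and the KDM4F window held none of the 4 motifs.

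Among all 43 listed member promoters, GGGCGG occurred in 37 (86.0%, against 60.9% of all promoters). The YY1 core ATGGCG occurred in 13 (30.2%, against 14.6%), and the E box CACGTG in 6 of 43 (against 8.66%). CCAAT was found in 17 (39.5%, against 36.3%), CGGAAG in 12 (27.9%, against 26.4%) and the NRF1 core GCATGC in 4 (9.30%, against 7.97%). TATAAA was found in 0 member promoters, against 9.34% of all promoters, and the CRE core TGACGT and the AP-1 motif TGAGTCA in 1 each (2.33%, against 9.64% and 3.67%). Both strands were searched, and the GC box and ETS core can overlap, as they do in KDM4D. These matches describe letters in the windows and say nothing about bound factors. Promoters of genes with a start peak in both libraries had a median of 27 CpG dinucleotides and promoters of genes with a start peak in neither a median of 5, so the CpG content of the members was near that of genes with peaks.

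The sh-VNGD library kept 31326715 tags after repeated positions were removed and the sh-ctrl library 22931980, although the totals read were 48164322 in sh-VNGD and 51628228 in the control library. Peaks numbered 285039 in sh-VNGD, against 202226 in sh-ctrl on chromosomes 1 to 22. The value used throughout is the pileup, the number of tags that cover a peak's summit, which is not scaled for depth. A start region is a merged region of both libraries' peaks within 1000 bp of a listed start, and a relative log2 ratio is the log2 of the sh-VNGD over the sh-ctrl pileup, each per kept tag, minus the median of all genes (−0.45). The median gene had equal pileups in both libraries, so a relative log2 ratio of 0 means equal tag numbers. How far that median reflects depth, repeated positions or the cells was not tested. As a check of the label, 5 of 8 mesenchymal and osteoblast markers had a start peak in both libraries, while VIM, SPARC and PRRX1 had none. TWIST1, a mesenchymal transcription factor gene, had 41 tags in sh-VNGD, against 12 in sh-ctrl, at a relative log2 ratio of 1.77 (0.82 to 2.84, 95% counting interval). The collagen gene COL1A2 had 19 in sh-VNGD against 11 in sh-ctrl (0.79, −0.36 to 2.01), the fibronectin gene FN1 19 in sh-VNGD against 31 in sh-ctrl (−0.71, −1.61 to 0.16), COL1A1 75 in sh-VNGD against 94 in sh-ctrl (−0.33) and RUNX2 43 in sh-VNGD against 38 in sh-ctrl (0.18). Of these 5 markers, 1 was thus at least 1.5-fold lower in sh-VNGD and 2 were at least 1.5-fold higher, against 3.27% and 6.73% of all genes, and the TWIST1 ratio was larger than that of any member. Start peaks of both libraries also stood at 3 of 4 epithelial markers, CDH1 (138 in sh-VNGD, against 127 in sh-ctrl), EPCAM (108 in sh-VNGD against 139 in sh-ctrl) and KRT5 (20 in sh-VNGD against 10 in sh-ctrl, at 1.00, −0.16 to 2.26), and at 2 of 4 haematopoietic markers, SPI1 (113 in sh-VNGD against 105 in sh-ctrl) and CD3E (82 in sh-VNGD against 112 in sh-ctrl). Start peaks therefore did not separate these lineages, and the part of other cells in any result was not tested.

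Nearly all of the lysine methylation genes were accessible at their start in both libraries. A start peak of both libraries was present at 43 of 47 genes (91.5%, against 69.5% of all genes). SETD1B had a peak of sh-VNGD only (3.75% of all genes), at an outer gene end that stands in for its unlisted start. A start peak of sh-ctrl only was present at 0 genes (2.34% of all genes). KDM4E, KDM4F and EHMT2 had a start peak of neither (24.4% of all genes). The median start pileup was 94 tags in sh-VNGD, against 96 in sh-ctrl, while all genes with a ratio had medians of 75 in sh-VNGD against 77 in sh-ctrl, and the median region was 897 bp wide, against 764 bp. Member pileups ran from 35 to 189 tags in sh-VNGD and from 33 to 213 in sh-ctrl, with KMT2C the lowest and KDM2A the highest in each. Of the 43 members, 10 were in the top decile of all genes by summed pileup and 0 in the lowest. Summits lay a median of 101 bp upstream of a listed start in sh-VNGD and 120 bp in sh-ctrl, and within 500 bp of it for 36 of 41 genes in each library.

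Levels at the starts differed little between the libraries. The median relative log2 ratio of the 43 genes was −0.07, with quartiles of −0.20 and 0.05, and 24 genes lay below 0, 17 above it and 2 at it (KDM4A and KDM8). Over all 13206 genes with a ratio, the quartiles were −0.18 and 0.19 and 49.8% lay below 0. In all genes the ratio went down as summed pileup went up, with a median of 0.25 in the lowest decile and −0.08 in the highest. No member was at least 1.5-fold lower in sh-VNGD (0 of 43, against 3.27% of all genes), and 1, KDM7A, was at least 1.5-fold higher (against 6.73% of all genes). Intervals lay wholly below 0 for 1 gene (KMT2B, against 4.2% of all genes) and wholly above 0 for 1 gene (KDM7A, against 4.32%). These shares are near or below the background. The SD of the ratios was 0.26 in the members and 0.36 in all genes, which include many with fewer tags.

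**Figure D1:**
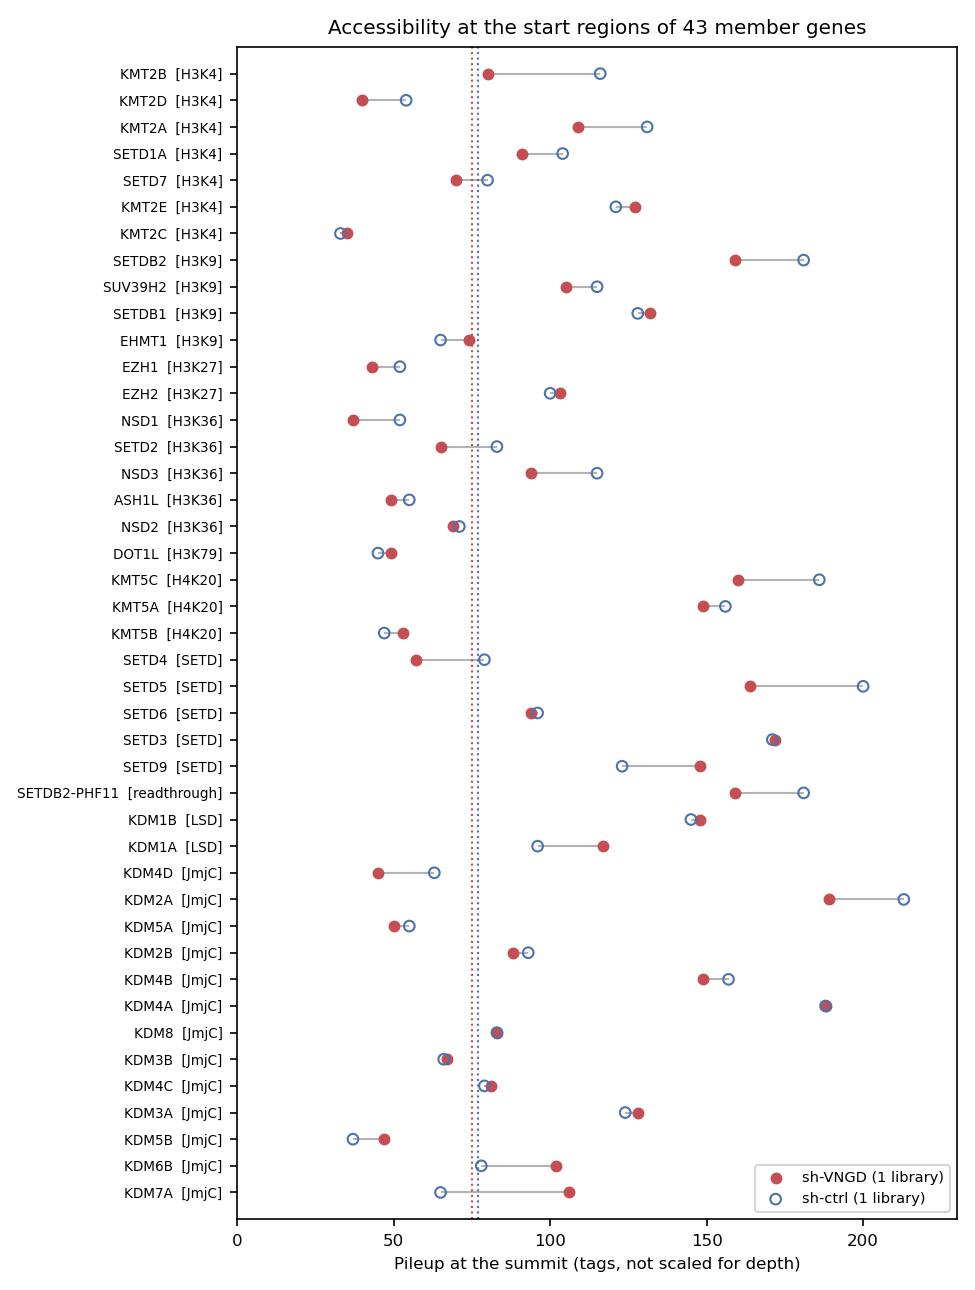
Pileup in tags at the summit (x axis) of the start region of each of 43 genes (y axis, with the enzyme class in brackets), with filled points for the sh-VNGD library, open points for the sh-ctrl library and dotted lines at the medians of all genes, 75 tags in sh-VNGD, against 77 in sh-ctrl. The paired points lie close together for most genes, with KDM7A (106 tags in sh-VNGD, against 65 in sh-ctrl) and KMT2B (80 in sh-VNGD against 116 in sh-ctrl) the widest apart in log2 ratio.

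**Figure D2:**
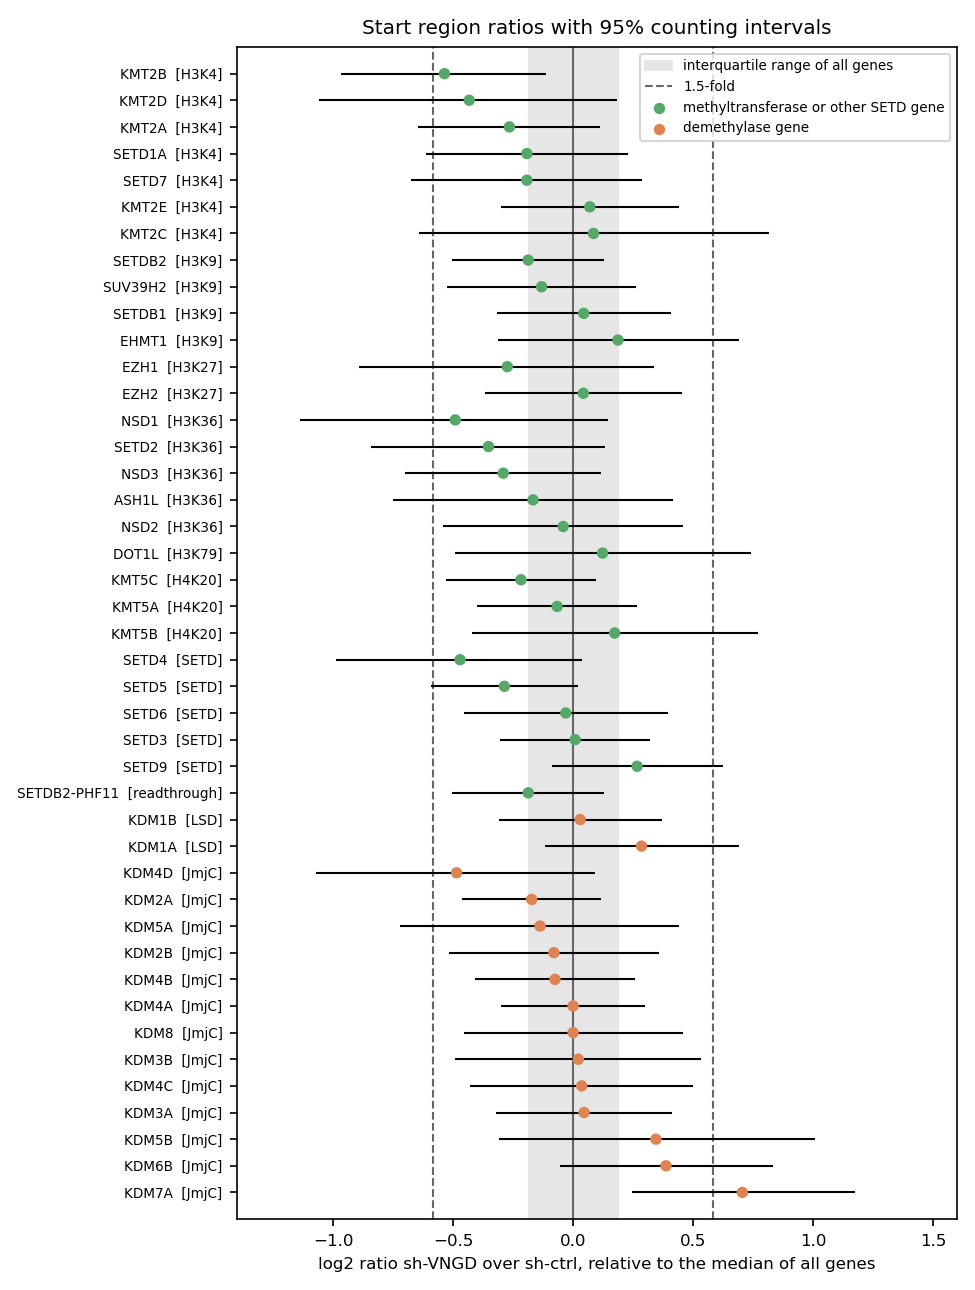
Relative log2 ratio of sh-VNGD over sh-ctrl at the start region (x axis) of the same 43 genes (y axis), with 95% counting intervals as bars, green points for methyltransferase-side genes, orange points for demethylases, the interquartile range of all genes in grey and 1.5-fold differences as dashed lines. KDM7A at 0.71 is the only point past a dashed line, and all 5 H3K36 methyltransferase points lie left of 0, as do 49.8% of all genes.

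Among the genes grouped here as H3K4 methyltransferases, 5 of 7 with a ratio lay below 0, against 49.8% of all genes, with a median of −0.19. H3K4 methylation marks promoters and enhancers. Set against genes of like pileup, 6 of 7 lay below 0 (median −0.19). By fold enrichment 4 of 7 did (median −0.13), against 50% of all genes. KMT2B, an MLL-type enzyme of promoters, had 80 tags in sh-VNGD, against 116 in sh-ctrl in a region of 1465 bp (chr19:35716542-35718006), a relative log2 ratio of −0.54 (−0.97 to −0.11). It was the lowest of the 43 genes. Its summits lay apart, at −1054 bp from the start in sh-VNGD and −370 bp in sh-ctrl, so the pileups count tags at different positions. By the authors' fold enrichment over the local background, 7.44 in sh-VNGD, against 9.18 in sh-ctrl, its relative log2 ratio was −0.19. A smaller region just inside the gene had 33 tags in sh-VNGD, against 44 in sh-ctrl, at −0.42 (−1.11 to 0.27).

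KMT2D, an enzyme of enhancer H3K4 monomethylation, had 40 tags in sh-VNGD, against 54 in sh-ctrl, at −0.43 (−1.06 to 0.18). Its relative ratio by fold enrichment was −0.59, past 1.5-fold on that measure alone, where 2.02% of all genes were at least 1.5-fold lower. KMT2C, which acts in the same kind of complex, had 35 tags in sh-VNGD, against 33 in sh-ctrl, at 0.08, and further regions at its start had 29 in sh-VNGD against 31 in sh-ctrl and 20 in sh-VNGD against 21 in sh-ctrl. The KMT2C start therefore consisted of 3 small regions that were nearly equal in the 2 libraries.

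KMT2A, the MLL gene rearranged in leukaemia, had 109 tags in sh-VNGD, against 131 in sh-ctrl upstream of its start (−0.27, −0.65 to 0.11). The neighbouring region downstream had 72 in sh-VNGD against 59 in sh-ctrl, at 0.29 (−0.23 to 0.81). The direction thus differed between the 2 regions beside the KMT2A start, with both intervals spanning 0.

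SETD1A, a SET1-type enzyme of promoter H3K4 trimethylation, showed the same kind of split. The region over its start had 91 tags in sh-VNGD, against 104 in sh-ctrl, at −0.19 (−0.61 to 0.23). The region immediately upstream (chr16:30957002-30957387) had 98 tags in sh-VNGD, against 57 in sh-ctrl, at 0.78 (0.30 to 1.28), the highest ratio of any region at a member's start. SETD7, a monomethyltransferase that also modifies other proteins, had 70 in sh-VNGD against 80 in sh-ctrl at −0.19 and a second region with 56 in sh-VNGD against 51 in sh-ctrl. KMT2E, an MLL relative, had 127 tags in sh-VNGD, against 121 in sh-ctrl at 0.07, in a region upstream of its start. The summits in it lay apart, at −1470 bp from the start in sh-VNGD and −1120 bp in sh-ctrl. The non-coding gene KMT2E-AS1 also starts within 1000 bp of that region. The region over the KMT2E start had 60 in sh-VNGD against 68 in sh-ctrl, at −0.18 (−0.71 to 0.34). Further regions had 54 in sh-VNGD against 70 in sh-ctrl, and 34 in sh-VNGD only.

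SETD1B, the close relative of SETD1A, had a peak at its gene ends in sh-VNGD only, with 18 tags at chr12:121832795-121832994. This peak lay just past the upper gene end. Both outer ends stand in for its unlisted start, so the peak need not mark the start. Inside the gene, 4 regions held peaks of both libraries. The highest (chr12:121796989-121797484) had 158 tags in sh-VNGD, against 187 in sh-ctrl, and the others had 79 in sh-VNGD against 103 in sh-ctrl, 76 in sh-VNGD against 73 in sh-ctrl, and 58 in sh-VNGD against 68 in sh-ctrl. Accessibility at SETD1B was therefore high in both libraries, away from the outer ends.

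The H3K9 methyltransferases had a median of −0.04 over 4 genes. SETDB1, which silences repeats together with TRIM28, had 132 tags in sh-VNGD, against 128 in sh-ctrl, at 0.04. SETDB2 had 159 in sh-VNGD against 181 in sh-ctrl, at −0.19 (−0.50 to 0.13), a value that also stands for SETDB2-PHF11. SUV39H2, a trimethylating enzyme of heterochromatin, had 105 in sh-VNGD against 115 in sh-ctrl, at −0.13. EHMT1, the partner of EHMT2 in H3K9 dimethylation, had 74 tags in sh-VNGD, against 65 in sh-ctrl, at 0.19 (−0.31 to 0.69).

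EHMT2, also known as G9a, had no start peak in either library. The nearest region of sh-VNGD lay 3.74 kb from its listed start, with 12 tags, and that of sh-ctrl 4.51 kb away, with 16 tags. Its promoter held 25 CpG dinucleotides, near the median of genes with start peaks in both libraries. EHMT2 lies in the major histocompatibility region of chromosome 6, for which the genome build also holds alternate sequences. Of 92 protein-coding genes within 1 Mb, 37 had a start peak of both libraries (40.2%, against 69.5% of all genes) and 42 of neither, and the median start pileup there was 24 tags in sh-VNGD, against 18 in sh-ctrl. Peaks outside the numbered and sex chromosomes, alternate sequences included, numbered 18685 in sh-VNGD, against 12119 in sh-ctrl. Their part in the missing EHMT2 peak was not tested.

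EZH1 and EZH2, the catalytic subunits of the Polycomb complex PRC2, had ratios on either side of 0. EZH2 had 103 tags in sh-VNGD, against 100 in sh-ctrl, at 0.04 (−0.37 to 0.45). EZH1 had 43 tags in sh-VNGD, against 52 in sh-ctrl, at −0.27 (−0.89 to 0.34). The EZH2 start was thus about as accessible in both libraries, and the EZH1 difference was within its counting interval.

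All 5 H3K36 methyltransferases lay below 0, against 49.8% of all genes, from −0.49 to −0.04 with a median of −0.29. Each interval spanned 0. NSD1, a dimethylating enzyme mutated in Sotos syndrome, had 37 tags in sh-VNGD, against 52 in sh-ctrl, at −0.49 (−1.14 to 0.14). A further region at its listed starts had 24 tags in sh-VNGD only. SETD2, which trimethylates H3K36 behind RNA polymerase, had 65 tags in sh-VNGD, against 83 in sh-ctrl, at −0.35 (−0.84 to 0.13). NSD3 had 94 in sh-VNGD against 115 in sh-ctrl at its upper gene end (−0.29), ASH1L 49 in sh-VNGD against 55 in sh-ctrl (−0.17) and NSD2 69 in sh-VNGD against 71 in sh-ctrl (−0.04). Beside the upper NSD3 end, a further peak had 27 tags in sh-VNGD only. The region at the lower NSD3 end had 81 in sh-VNGD against 88 in sh-ctrl (−0.12). With each gene set against genes of like pileup, all 5 lay below 0, with a median of −0.24. By fold enrichment 4 of 5 did, against 50% of all genes, with a median of −0.15. This is a count over 5 genes in 1 library a group, with no test.

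DOT1L, the H3K79 enzyme, had 49 tags in sh-VNGD, against 45 in sh-ctrl at its lower gene end, at 0.12 (−0.49 to 0.74), and a peak of 27 tags in sh-ctrl only at the other end. A region inside DOT1L (chr19:2168840-2169406) was higher, with 105 tags in sh-VNGD, against 123 in sh-ctrl. Of the H4K20 enzymes, KMT5A, which places the first methyl group, had 149 tags in sh-VNGD, against 156 in sh-ctrl, at −0.07. KMT5B and KMT5C, which add the next ones, had 53 in sh-VNGD against 47 in sh-ctrl (0.17) and 160 in sh-VNGD against 186 in sh-ctrl (−0.22). The KMT5C summits lay apart, at −93 bp from the start in sh-VNGD and −394 bp in sh-ctrl. At a second listed start of KMT5A, one region (chr12:123389562-123390389) had 41 tags in sh-VNGD, against 76 in sh-ctrl, at −0.89 (−1.48 to −0.32), while the region over that start had 58 in sh-VNGD against 55 in sh-ctrl. The lowest ratio of any region at a member's start was therefore at the inner KMT5A start, with the main start near 0.

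The remaining SETD genes include SETD3, a histidine methyltransferase of actin, and SETD6, which methylates the NF-kB subunit RELA. SETD3 had 172 tags in sh-VNGD, against 171 in sh-ctrl, at 0.01, and SETD6 had 94 in sh-VNGD against 96 in sh-ctrl, at −0.03. The SETD6 summits lay at −92 bp from the start in sh-VNGD and 720 bp in sh-ctrl, so its pileups count tags at different positions. SETD4 had 57 tags in sh-VNGD, against 79 in sh-ctrl, at −0.47 (−0.99 to 0.04). SETD5 had 164 in sh-VNGD against 200 in sh-ctrl, at −0.29 (−0.59 to 0.02), and SETD9 had 148 in sh-VNGD against 123 in sh-ctrl, at 0.27 (−0.09 to 0.62). The SETD5 and SETD4 intervals ended just above 0.

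The 2 LSD demethylases lay above 0. KDM1A, or LSD1, which removes H3K4 methylation as part of CoREST, had 117 tags in sh-VNGD, against 96 in sh-ctrl, at 0.29 (−0.12 to 0.69). Its fold enrichment was 15.7 in sh-VNGD, against 16.4 in sh-ctrl, a relative log2 ratio of 0.05. KDM1B had 148 in sh-VNGD against 145 in sh-ctrl, at 0.03, and a second region with 113 in sh-VNGD against 102 in sh-ctrl. KDM1A was thus higher in sh-VNGD by tag number and near the median of all genes by fold enrichment.

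The JmjC demethylases had a median of 0.00 over 13 genes, with 5 below 0 (against 49.8% of all genes), 6 above and 2 equal. KDM7A, which demethylates H3K9 and H3K27, had 106 tags in sh-VNGD, against 65 in sh-ctrl (chr7:140176847-140177743), a 1.63-fold higher pileup and a relative log2 ratio of 0.71 (0.25 to 1.17). Among genes in its decile of summed pileup, 152 to 177 tags, 1.21% were at least 1.5-fold higher. By fold enrichment, 9.26 in sh-VNGD, against 7.17 in sh-ctrl, the relative ratio was 0.48, and no member was at least 1.5-fold higher on that measure (0 of 43, against 3.09% of all genes), while the local background was 10.6 tags in sh-VNGD, against 8.2 in sh-ctrl. Of the other regions of the gene, the 2 highest had 98 tags in each library, 68.2 kb from the start, and 73 tags in sh-VNGD, against 86 in sh-ctrl, 1.46 kb from it. A divergent non-coding gene, KDM7A-DT, starts within 1000 bp, so the region is not that of KDM7A alone.

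KDM6B, a demethylase of H3K27, had 102 tags in sh-VNGD, against 78 in sh-ctrl, at 0.39 (−0.05 to 0.83). A second region just downstream had 59 in sh-VNGD against 38 in sh-ctrl, at 0.63 (0.02 to 1.26). Both regions at this start were thus higher in sh-VNGD by tag number. Fold enrichment of the main region was 5.87 in sh-VNGD, against 5.82 in sh-ctrl, a relative log2 ratio of 0.13. Under the centred alternatives the KDM6B ratio ran from −0.02 to 0.43. The second region had a fold enrichment of 3.35 in sh-VNGD, against 2.75 in sh-ctrl. KDM5B, which demethylates H3K4, had 47 tags in sh-VNGD, against 37 in sh-ctrl, at 0.35 (−0.31 to 1.01), and a further peak of 41 tags in sh-VNGD only. KDM5A, its paralogue, had 50 in sh-VNGD against 55 in sh-ctrl, at −0.14 (−0.72 to 0.44).

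Within the KDM4 family of H3K9 and H3K36 demethylases, KDM4A had 188 tags in each library, KDM4B 149 in sh-VNGD, against 157 in sh-ctrl (−0.08), and KDM4C 81 in sh-VNGD against 79 in sh-ctrl (0.04). KDM4D had 45 tags in sh-VNGD, against 63 in sh-ctrl, at −0.49 (−1.07 to 0.09), in a region it shares with the start of CWC15. KDM4E and KDM4F, its neighbours on chromosome 11, had no peak of either library in their whole windows. The nearest regions lay 2203 bp from KDM4E, with 23 tags in sh-VNGD, against 11 in sh-ctrl, and 9.92 kb from KDM4F, with 15 in sh-VNGD against 13 in sh-ctrl. The 3 neighbouring genes thus differed in having a start peak at all, as the CpG content of the KDM4D and KDM4F sequences printed above also differed.

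KDM2A and KDM2B bind unmethylated CpG through a CXXC domain and demethylate H3K36. KDM2A had the highest start pileup of the members in both libraries, 189 tags in sh-VNGD, against 213 in sh-ctrl (−0.17) at an inner listed start, and 76 in sh-VNGD against 82 in sh-ctrl at its first listed start. KDM2B had 88 in sh-VNGD against 93 in sh-ctrl (−0.08), and 30 in sh-VNGD against 25 in sh-ctrl at its outer listed starts. The H3K9 demethylases KDM3A and KDM3B had 128 in sh-VNGD against 124 in sh-ctrl and 67 in sh-VNGD against 66 in sh-ctrl, both near 0, and the JmjC oxygenase gene KDM8 had 83 in each library. Further small peaks stood beside these starts in sh-VNGD only, of 30 and 29 tags at KDM3A and 28 at KDM3B.

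Taking the sides as groups, 19 of 28 methyltransferase-side genes lay below 0 and 9 above, with a median of −0.18, against 49.8% of all genes below 0. Both SETDB2 and SETDB2-PHF11 are among these genes, with 1 shared region below 0. Of 15 demethylases, 5 lay below 0, 8 above and 2 at it, with a median of 0.02. Set against genes of like pileup, the median was −0.11 on the methyltransferase side and 0.05 for demethylases. By fold enrichment the medians were −0.02 on the methyltransferase side and −0.01 for demethylases. On that measure 14 of 28 methyltransferase-side genes and 8 of 15 demethylases lay below 0, against 50% of all genes, so these sides did not stand apart. Across all 70 regions that touch a start of a member, 59 held peaks of both libraries, 9 of sh-VNGD only and 2 of sh-ctrl only, against 79.7%, 13.1% and 7.21% of the start regions of all genes. Of the 59, 1 was at least 1.5-fold lower in sh-VNGD (KMT5A, against 4.02% of such regions of all genes) and 3 were at least 1.5-fold higher (SETD1A, KDM7A and KDM6B, against 8.28%). Starts of another gene lay within 1000 bp for 15 of the 43 genes, among them CCNK beside SETD3, TPMT beside KDM1B and CCDC77 beside KDM5A, and those regions cannot be assigned to 1 gene.

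Genes that work with these enzymes were also accessible in both libraries, with ratios from −0.77 to 0.62. Over 64 genes in 7 lists, 61 had a start peak in both libraries (95.3%, against 69.5% of all genes). A start peak of sh-VNGD only was present at 2, EPOP with 16 tags and SMYD1 with 14, against 3.75% of all genes. It was present in neither library at 1, RCOR2, against 24.4% of all genes. The median relative ratio was −0.06. At least 1.5-fold lower was 1 gene, against 3.27% of all genes. It was PHF21A, a CoREST subunit that reads unmethylated H3K4, with 54 tags in sh-VNGD, against 92 in sh-ctrl, at −0.77 (−1.28 to −0.27). At least 1.5-fold higher was also 1 gene, against 6.73% of all genes. It was PPHLN1 of the HUSH silencing complex, with 69 tags in sh-VNGD, against 45 in sh-ctrl, at 0.62 (0.05 to 1.19). By fold enrichment PHF21A was at −0.45 and PPHLN1 at 0.10, and 0 of the 61 genes were at least 1.5-fold lower or higher, against 2.02% and 3.09% of all genes.

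Among the COMPASS subunits, which serve the H3K4 methyltransferases, 9 of 11 lay below 0 (median −0.14), against 49.8% of all genes, and by fold enrichment 11 of 11 did (median −0.18), against 50% of all genes. MEN1 (menin), which docks KMT2A and KMT2B, was lowest with 122 tags in sh-VNGD, against 173 in sh-ctrl, at −0.50 (−0.85 to −0.16), and at −0.25 by fold enrichment. The core subunit genes WDR5, RBBP5, ASH2L and DPY30 stood at 0.00, −0.07, −0.45 and −0.12. Of the PRC2 subunits, 4 of 8 lay below 0, with EED at 69 tags in sh-VNGD, against 92 in sh-ctrl (−0.42) and SUZ12 at 38 in sh-VNGD against 26 in sh-ctrl (0.55, −0.21 to 1.33, and 0.05 by fold enrichment).

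Further JmjC genes lay below 0 in 7 of 8 (median −0.24), against 49.8% of all genes, but by fold enrichment in 4 of 8 (median −0.02). By pileup, heterochromatin genes in 4 of 10 (0.03), CoREST genes in 4 of 7 (−0.02), PRDM and SMYD genes in 4 of 9 (0.12) and arginine methyltransferase genes in 3 of 9 (0.05). By fold enrichment the counts below 0 were 4 of 10 heterochromatin, 2 of 7 CoREST, 5 of 9 PRDM and SMYD and 5 of 9 arginine methyltransferase genes. CARM1, a coactivator arginine methyltransferase, had 181 tags in sh-VNGD, against 139 in sh-ctrl, at 0.38 (0.05 to 0.71), and at 0.10 by fold enrichment.

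Most peaks of long genes lie away from the start. In windows from 2 kb before to 2 kb after the 47 genes, 4.16 Mb in all, sh-VNGD had 603 peaks and sh-ctrl 454. Per 100 kb there were 14.5 peaks in sh-VNGD against 10.9 in sh-ctrl, while the windows of all genes had 11.7 in sh-VNGD against 8.69 in sh-ctrl. Peaks covered 4.92% of the sequence in sh-VNGD against 3.94% in sh-ctrl, and in all gene windows 3.86% in sh-VNGD against 3.08% in sh-ctrl. The ratio of peak numbers, 1.33, was close to that of all gene windows, 1.35, and to that of kept tags, 1.37. Of the sh-VNGD peaks, 53.6% lay over a peak of sh-ctrl (Wilson 95% interval 49.6 to 57.5, against 54.4% in all gene windows). Of the sh-ctrl peaks, 71.1% lay over a peak of sh-VNGD (66.8 to 75.1, against 72.9%). The members' peaks were thus shared between libraries about as often as those of other genes.

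The sh-VNGD library had more peaks in 34 of 47 windows, the same number in 10 and fewer in 3. The most peaks were in the longest gene, KDM4C, with 44 in sh-VNGD, against 37 in sh-ctrl, then in KMT2C with 40 in sh-VNGD against 28 in sh-ctrl and ASH1L with 36 in sh-VNGD against 33 in sh-ctrl. The densest window was that of KDM6B, with 9 peaks in each library, or 36.6 per 100 kb. The 3 windows with fewer peaks in sh-VNGD were KDM4B (22 in sh-VNGD, against 25 in sh-ctrl), KMT2D (5 in sh-VNGD against 7 in sh-ctrl) and SETD1A (5 in sh-VNGD against 6 in sh-ctrl).

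**Figure D3:**
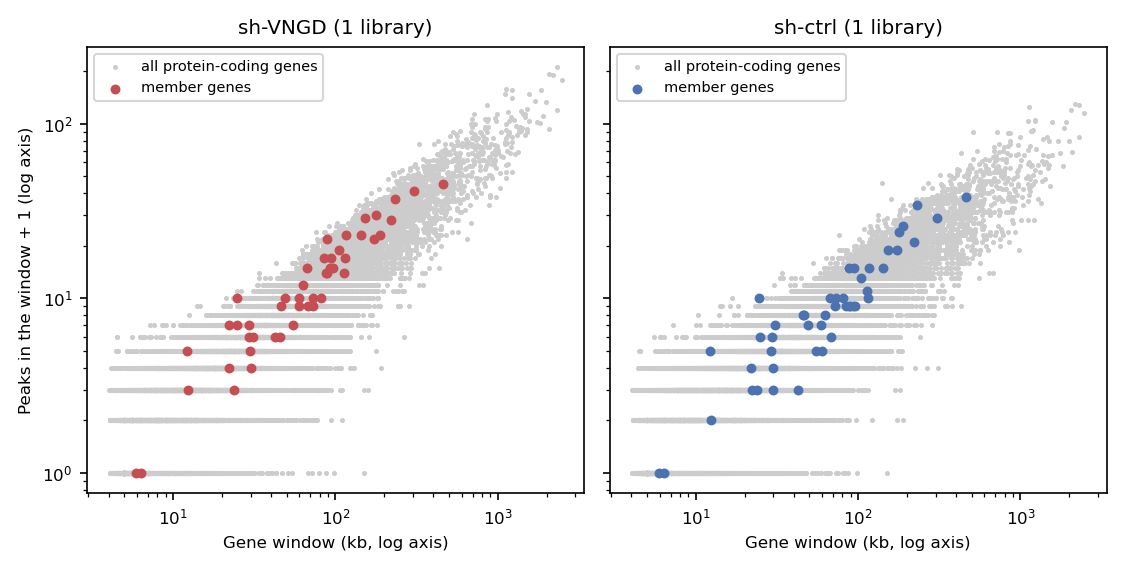
Peaks per gene window plus 1 (y axis, log) against window length in kb (x axis, log) for all protein-coding genes in grey and the 47 members in colour, sh-VNGD on the left and sh-ctrl on the right. Members follow the rise of all genes with length, and KDM4E and KDM4F lie at the bottom with 0 peaks.

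Regions away from any protein-coding start, here called inner regions, were compared with inner regions of all genes. The members had 246 with peaks of both libraries, in 40 genes, with a median log2 ratio of −0.06 relative to all 63947. At least 1.5-fold lower in sh-VNGD were 30 (12.2%, against 12.3% of all), and at least 1.5-fold higher were 25 (10.2%, against 11% of all). Intervals lay wholly below 0 for 21 regions, against 8.09% of all inner regions, and wholly above 0 for 5, against 2.57%. The shares past 1.5-fold were near the background.

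The lowest 5 inner regions were in KDM5B, KDM3A, KDM4B and EHMT1. The region in KDM5B, 18.6 kb from its start (chr1:202789665-202790003), had 21 tags in sh-VNGD, against 49 in sh-ctrl, at −1.42 (−2.23 to −0.65). That in KDM3A had 12 in sh-VNGD against 25 in sh-ctrl, at −1.25 (−2.38 to −0.21). The 2 in KDM4B had 44 tags in sh-VNGD, against 89 in sh-ctrl (chr19:5132176-5132627, −1.21, −1.76 to −0.67) and 36 in sh-VNGD against 68 in sh-ctrl (chr19:4991483-4992060, −1.11, −1.74 to −0.51). The region in EHMT1 (chr9:137664581-137665044) had 57 tags in sh-VNGD, against 111 in sh-ctrl, at −1.15 (−1.64 to −0.68). These 5 regions had 49 tags or more in sh-ctrl except the one in KDM3A.

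The highest 5 started from fewer sh-ctrl tags. SETD7 had 46 tags in sh-VNGD, against 18 in sh-ctrl (chr4:139509764-139510081) at 1.16 (0.35 to 2.03). SETD5 had 29 in sh-VNGD against 12 in sh-ctrl 74.0 kb from its start, at 1.08 (0.07 to 2.19), and 38 in sh-VNGD against 16 in sh-ctrl 7.25 kb from it, at 1.06 with a lower bound of 0.18. KDM4C had 40 in sh-VNGD against 17 in sh-ctrl, at 1.04 (0.19 to 1.95), and EZH1 24 in sh-VNGD against 11 in sh-ctrl, at 0.93 (−0.15 to 2.11). None of these regions had more than 18 tags in sh-ctrl.

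The gene bodies of KDM4B and its paralogue KDM4C are set side by side here, with no test of their difference. Of 16 inner regions of KDM4B, 6 were at least 1.5-fold lower in sh-VNGD and 0 higher, with a median of −0.28, while its start was near 0. Of 25 inner regions of KDM4C, 1 was lower and 4 higher, with a median of 0.07. Of all inner regions, 12.3% were lower and 11% higher. Over all genes, the share at least 1.5-fold lower was 18.3% in the decile of inner regions with the most tags and 3.22% in that with the fewest. That share was highest, 21.6%, in the decile of 81 to 124 summed tags, which holds the KDM4B median of 87. Set against regions of like pileup, 4 of the 16 KDM4B regions were lower and 0 higher, against 12.6% and 9.54% of all inner regions. By fold enrichment 2 were lower and 0 higher, with a median of −0.20, against 7.99% and 7.28% of all inner regions. By fold enrichment 0 of the KDM4C regions were lower and 2 higher. Of 16 inner regions of ASH1L, 1 was lower and 4 higher, with a median of 0.29, but 2 were higher against regions of like pileup (median 0.19) and 0 by fold enrichment (median 0.09). The member with the highest median, among those with at least 5 inner regions, was ASH1L by pileup, KDM6B against regions of like pileup (0.37) and SETD5 by fold enrichment (0.47). KMT2B, lowest at its start, also had an inner region with 87 tags in sh-VNGD, against 155 in sh-ctrl (chr19:35731137-35731915), at −1.03 (−1.42 to −0.64), although by fold enrichment this was −0.19.

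**Figure D4:**
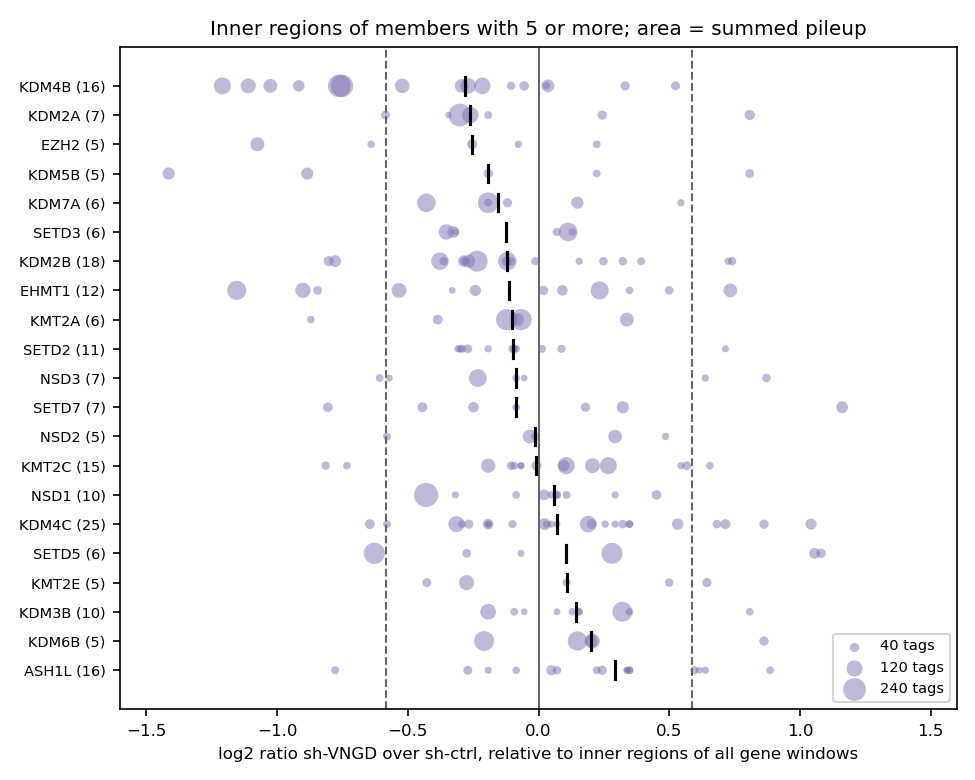
Log2 ratio of sh-VNGD over sh-ctrl relative to inner regions of all genes (x axis) for each inner region of the members with at least 5 (y axis, number in brackets), with point area for summed pileup, a black bar at the median and dashed lines at 1.5-fold. KDM4B, at the top with a median of −0.28, has 6 points left of the lower dashed line, and ASH1L, at the bottom with 0.29, has 4 right of the upper one.

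**Figure D5:**
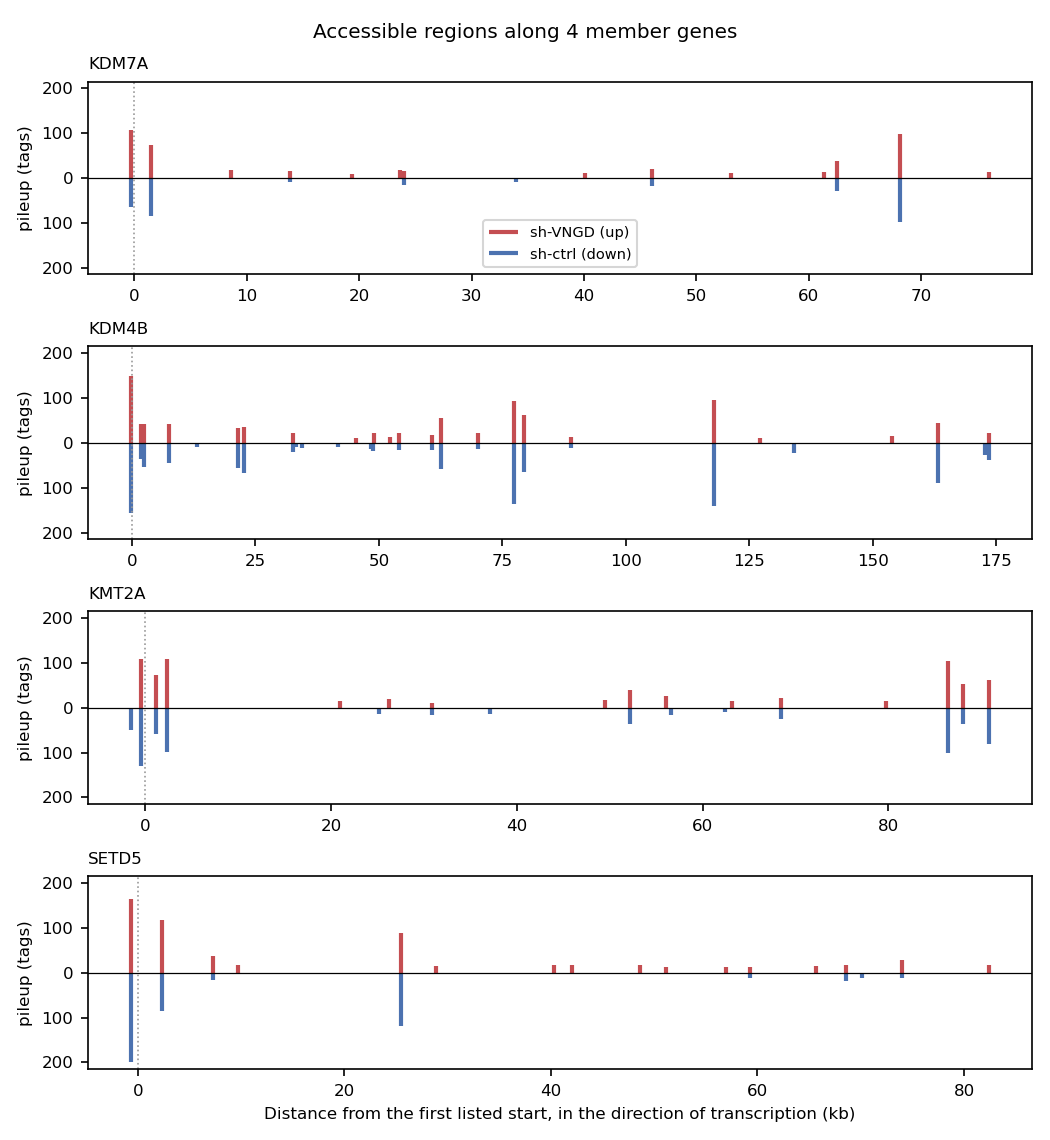
Pileup in tags (y axis, sh-VNGD upward and sh-ctrl downward) of the regions along KDM7A, KDM4B, KMT2A and SETD5 by distance in kb from the first listed start in the direction of transcription (x axis). At KDM7A the start bar is taller in sh-VNGD (106 tags) than in sh-ctrl (65), and in KDM4B several bars inside the gene are shorter in sh-VNGD.

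Peaks of 1 library only were mostly low. Of 645 regions away from starts, 270 were of sh-VNGD only (41.9%, against 41.4% in all gene windows), with a median of 14 tags, and 129 of sh-ctrl only (against 18.1%), with a median of 13. Those of all gene windows had medians of 14 in sh-VNGD and 12 in sh-ctrl, so the share and the height of these regions were near the background. At least 20 tags were reached by 31 of the 270 in sh-VNGD and 16 of the 129 in sh-ctrl. No such share over all gene windows is given here, so these counts say nothing particular to the members. The highest in sh-VNGD only were in KDM2A, with 45 tags (chr11:67241041-67241329), KDM4A with 42, KMT2D with 35, KMT2A with 26, and KDM5A and SETD1A with 24 each. The highest in sh-ctrl only were in SETD1B with 52 tags (chr12:121803898-121804102), just upstream of KMT2A with 50, in SETDB1 with 49 (chr1:150961800-150962206), in KMT2D with 42, and in EHMT1 and KDM4B with 27 each. KMT2A and KMT2D appear on both sides. A peak that was not called can still have tags, because calling weighs the local background.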

How the data were processed

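ATAC-seq peak lists of 1 sh-VNGD and 1 sh-ctrl library of U2OS cells were used, grouped by the treatment in the labels. Per the file headers, the authors called peaks with MACS 2.1.0.20150731 on each library separately, without a control, with tags shifted by 100 bp and extended to 200 bp, 1 tag kept per position and a q cutoff of 0.05. Bowtie2 2.2.5, deepTools, MACS2 2.1.2 and the builds hg38 and GRCh38.p13 are listed in the submitters' processing notes, so the MACS versions differ. Filters on alignments are not given in the sources used here. The deposited pileup is a signal, the tags over the summit, unscaled, and 100% of its values were exactly whole. The fold enrichment over local background is the authors' own ratio for each peak, as deposited, and the −log10 q is the authors' deposited value, used only to filter. The shorter deposited format repeated these values line by line. Columns of other samples numbered 0.

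Genes and starts came from RefSeq tables of GRCh38.p14, a patch of the files' build with the same chromosome coordinates; genes with no listed start (4 members) used their outer ends. Peaks of both libraries were merged, and per gene the region within 1000 bp of a start with the highest summed scaled pileup was taken. Log2 ratios used pileups divided by kept tags, minus the median of all genes, with exact Clopper-Pearson 95% intervals. These intervals cover counting error only, since 1 library a group gives no spread between replicates. Called means at least 1.5-fold from the median. With 1 tag per position, few positions lie within reach of a summit, which limits high pileups. The ratio and interval were run on simulated pileups drawn as independent counts. These had no removal of repeated positions and no choice of summit, so the run checks the calculation and not its fit to these data. Python 3.11.15, pandas 2.3.3, numpy 2.4.6, scipy 1.17.1 and matplotlib 3.10.9 were used. With 1 library per group, no p-values were computed.

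The members and gene lists were chosen with earlier results of these data known. Genes named in full are the 6 highest and 6 lowest start ratios with a summed pileup of at least 30, every gene with a start peak in 1 library or neither, KMT2A, SETD2, EZH2, DOT1L, KDM1A, KDM5A and KDM5B. Of inner regions, the 5 highest and 5 lowest are named, and the 5 highest peaks of each library that overlap no peak of the other. Other named genes and regions were chosen after their values were seen. Alternatives covered scaling, centring, the measure of height, windows, flanks, thresholds and overlap.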

Additional observations from a re-analysis of the deposited data

How the results depend on the processing

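No paired analysis was possible because each group has 1 library, and for the same reason no replicate could be left out. The count of members at least 1.5-fold from the median rested on the scaling: with kept tags and no centring, which puts the median of all genes at −0.45, 18 of 43 members were lower, against 31.5% of all genes, 0 were higher, against 1.48%, and the members' median was −0.52. With total tags and no centring the members' median was 0.034. By fold enrichment 1 member was lower (KMT2D, against 2.02% of all genes) and 0 were higher, against 3.09%. At 2-fold, 0 were higher, against 1.71%. KDM7A ran from 0.48 to 0.72 under the centred alternatives, and was at 0.26 with kept tags and no centring. Windows of 500 and 2000 bp, gene ends, own windows, a summed pileup of at least 30 and centring within deciles of pileup left 0 lower and 1 higher, where 2.77% to 4.62% of all genes were lower and 4.06% to 7.32% higher. With a −log10 q of at least 10, member windows held 198 peaks in sh-VNGD, against 189 in sh-ctrl, of which 78.3% of the sh-VNGD and 80.4% of the sh-ctrl peaks were shared. With equal numbers of peaks taken from the top, 65.2% of sh-VNGD and 60.1% of sh-ctrl member peaks were shared. The order of the members' shares thus depended on the number of peaks called. No shares over all gene windows are given at these settings, so these values describe the member windows only. By fold enrichment, 14 inner regions were lower and 11 higher, against 7.99% and 7.28% of the 63947 of all genes. Chosen after seeing the data were inner regions centred within deciles of pileup (30 lower and 21 higher, against 12.6% and 9.54% of all), genes with a listed start only and members without SETDB2-PHF11 (0 lower and 1 higher in each). Where no cause is named, the cause was not tested. Depth limits what 1 start can show: at KDM2B, with 88 tags in sh-VNGD, against 93 in sh-ctrl, near the members' median, the 95% counting interval ran from −0.52 to 0.36, so differences inside it were not detectable.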
